A study of Amphimedon queenslandica with 124 samples.

Results

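Chamber-formation is the point in the metamorphosis of the sponge Amphimedon queenslandica at which a settled larva that has spread into a mat of cells first forms choanocyte chambers. This step was followed in 6 individuals, 3 labelled chamber-formation (embryo numbers 105, 113 and 121) and 3 labelled mat-formation (embryo numbers 104, 112 and 120), of 124 in the whole series. They were chosen by embryo number. The last 24 individuals, numbered 101 to 124, form 3 runs of 8 consecutive numbers, and each run holds 1 individual at settlement, 3 at mat-formation, and 1 each at chamber-formation, tent-pole-formation, juvenile and adult. The mat-formation individual with the highest number of each run is called here the third mat individual, and those with lower numbers the first and the second. The labels give all 9 the same stage and do not say what the order within a run means. All were wild individuals of this species collected singly at Heron Island, with no treatment named, and each library is 1 individual. RNA was measured by CEL-seq, which reads barcoded 3′ ends of polyadenylated RNA. The data are counts of reads assigned to each gene model, and CPM is that number per 1000000 counts of its library.

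A sponge larva swims with ciliated cells on its outer surface, settles, and takes itself apart into a mat of migrating cells. Choanocytes, the feeding cells of sponges, carry a flagellum within a collar of microvilli and line small chambers. Their beating draws water through the canals, and the juvenile begins to feed with them. The gene models of the count table carry identifiers only, and none of the 36868 identifiers matched the table of RefSeq genes (0 matches). Gene roles are therefore not given, flagellar, choanocyte and stem-cell marker genes could not be looked up, and the stage labels could not be checked against markers. Each library holds a whole individual, so more cells of a type and more RNA per cell cannot be told apart in any of the values below.

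Total counts were 1392882, 2195894 and 548828 in the chamber-formation individuals 105, 113 and 121, against 953600, 1291036 and 1427377 in the third mat individuals 104, 112 and 120. The depths of the groups overlapped. Of 36868 gene models, 24699 had at least 1 count in these 6 libraries, and 7944 (21.5%) passed the filter on low counts and were tested. These 7944 held 97.3% to 97.5% of the counts of each library. In rank correlation over the tested genes the 3 chamber-formation individuals correlated at 0.831 to 0.876 with each other and at 0.743 to 0.797 with the third mat individuals, which correlated at 0.863 to 0.884 among themselves. With tent-pole individuals the chamber-formation individuals correlated at 0.818 to 0.880, about as closely as with each other. Individual 105 was nearest to a tent-pole individual (0.880). With juveniles the chamber-formation individuals correlated at 0.776 to 0.852. Their median correlations were 0.847 with each other, 0.844 with tent-pole individuals and 0.84 with juveniles. These are correlations across genes, which are not independent replicates.

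Most of the genes called between the third mat individuals and chamber-formation rose. Of 7944 gene models 384 were called (4.83%), of which 299 rose (3.76%) and 85 fell (1.07%). Rises made up 77.9% of the calls, but 63.3% without the filter on low counts and 60.6% with all 9 mat individuals numbered 101 to 124. Over all genes tested the directions were closer to even. The groups did not overlap for 12.8% of genes in the upward direction and for 12.1% in the downward direction. A call is a Benjamini-Hochberg adjusted p below 0.05 from the quasi-likelihood test of edgeR, with 3 individuals a group. The rises were also the larger changes. Genes that rose had a median log2 fold change of 3.01 and genes that fell one of -1.80, against a median of 0.00 over all genes tested. At least 4-fold changes were found for 230 genes that rose and 39 that fell, at least 8-fold changes for 152 and 15, and at least 16-fold changes for 88 and 4. At an unadjusted p under 0.05 there were 1557 genes, the 384 called ones included. In simulated counts for this comparison, over 7944 genes, 66 genes were changed 8-fold, 67 were changed 4-fold and 67 were changed 2-fold. The test recovered 84.8%, 46.3% and 4.48% of these, so 2-fold changes were mostly missed in that setting. It called 95 genes there, against 384 in the data. The adjusted p depends on how many genes change, so recovery in the data can differ from these rates.

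**Figure D1:**
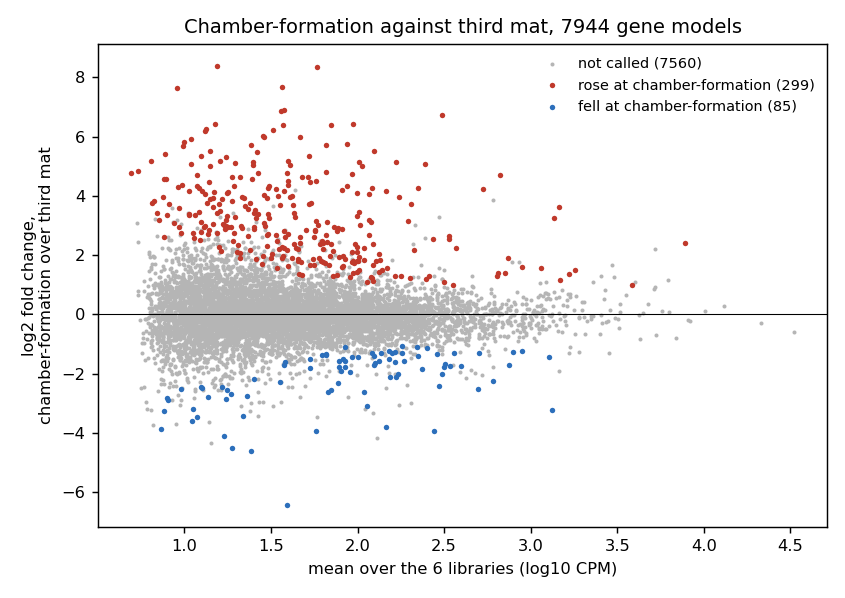
Each point is 1 of 7944 gene models, with the mean of its CPM in the 6 libraries on a log10 axis and the log2 fold change of chamber-formation over the third mat individuals on the other. The 299 genes that rose reach a log2 fold change of 8.39 and the 85 that fell reach -6.43.

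The individuals of the groups did not overlap for any called gene, and most of the genes that rose left a wide gap. The calls were made on these same individuals and favour such separation, so this is a description only. The CPM of all 3 chamber-formation individuals lay above that of all 3 of the third mat individuals for 299 of the 299 genes that rose, where 12.8% of all genes tested were separated in that direction. It lay below for 85 of the 85 that fell, where 12.1% of all genes were. For 234 of the 299 the lowest chamber-formation value was at least 2-fold above the highest mat value on the CPM + 1 scale, and for 117 at least 4-fold. Of the 85 that fell, 45 left a gap of at least 2-fold and 7 of at least 4-fold.

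Genes of all abundances were among those that rose. Their mean at chamber-formation ran from 9.60 to 13010 CPM with a median of 70.7 CPM and quartiles of 32.7 and 145.5 CPM. Some were close to silent in the third mat individuals, but 134 of the 299 (44.8%) averaged 10 CPM or more there. In the third mat individuals 2 of the 299 had no count among 3672013 counts, where 3 counts correspond to 0.817 CPM, and 33 had 1 to 3 counts. Together the 299 genes took 8.14%, 7.17% and 5.13% of all counts in the chamber-formation individuals 105, 113 and 121, against 1.49%, 1.83% and 1.57% in the third mat individuals 104, 112 and 120. The 10 most abundant of them held 50.9% of that share at chamber-formation. Without these 10, the others held 3.35% of counts at chamber-formation and, without the 10 most abundant there, 0.612% in the third mat individuals.

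The genes that fell remained detected. Their mean in the third mat individuals ran from 13.5 to 2405 CPM with a median of 142.3 CPM. None of the 85 was without a count in the chamber-formation individuals (0 genes among 4137604 counts), and 2 had 1 to 3 counts there. The 85 genes took 0.684%, 0.565% and 0.800% of counts in the chamber-formation individuals 105, 113 and 121, against 1.91%, 2.72% and 2.53% in the third mat individuals 104, 112 and 120. At chamber-formation 62 of the 85 still had a mean of at least 10 CPM.

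The chamber-formation individuals differed in the levels of the called genes. The mean log2(CPM + 1) over the 299 genes was 6.23, 6.53 and 5.90 in individuals 105, 113 and 121, against 3.15, 3.45 and 3.34 in the third mat individuals 104, 112 and 120. Individual 113 was highest for both the group mean and for single genes, with the highest CPM of the 3 for 194 of the 299 genes (64.9%), against 34.5% of all genes tested. The genes that fell ran the other way, at 5.01, 4.76 and 5.16 in individuals 105, 113 and 121, against 6.88, 7.17 and 7.13 in the mat individuals 104, 112 and 120. Individual 121 had the highest value at chamber-formation for 50 of the 85 (58.8%), against 36.2% of all genes. By this mean the same individual was farthest from the mat in both sets and the same individual nearest to it. By share of counts, individual 105 stood above 113 for the genes that rose (8.14% against 7.17%). The genes were chosen from these same individuals. Individual 113 was also the deepest library and 121 the shallowest. With all libraries thinned to 548828 counts the values were 6.24, 6.52 and 5.90 for the genes that rose and 4.86, 4.62 and 5.16 for those that fell, in the same order of individuals.

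The counts of called genes depended on which individual was left out. Without chamber-formation individual 105, 162 genes rose and 34 fell, and without individual 113, 129 rose and 16 fell. Without individual 121, the shallowest, 306 rose and 77 fell. Without the mat individuals 104, 112 and 120 in turn, 148, 178 and 136 genes rose and 38, 67 and 32 fell.

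Aqu2.1.24137_001 had the highest log2 fold change among the genes with a mean of at least 50 CPM. It stood at 164, 74.2 and 109 CPM in the chamber-formation individuals 105, 113 and 121, against 0, 0 and 0.701 CPM in the third mat individuals 104, 112 and 120. The groups were far apart, with 451 counts pooled over the chamber-formation libraries and 1 over the mat libraries, which is a 400.2-fold ratio (95% counting interval 71.5 to 15844). The log2 fold change was 8.34, with an SE of 0.701 and a Benjamini-Hochberg adjusted p of 0.000782 in edgeR. Without mat individual 120, which held the 1 count, it was 10.2, a value that is no bound since the mat group is then at 0. In the first and second mat individuals it was at most 2.40 CPM. After chamber-formation it varied strongly among individuals. The tent-pole individuals 106, 114 and 122 had 2.53, 118 and 17.4 CPM, the juveniles 107, 115 and 123 had 79.2, 346 and 198 CPM, and the adults 108, 116 and 124 had 122, 10.4 and 314 CPM. Tent-pole individual 106 was as low as a mat individual. The gene was close to absent before settlement, with no count in any of the 7 spot embryos or 13 free-swimming larvae and at most 19.3 CPM in the other embryos with at least 100000 counts. Among the 12 mat-formation libraries of at least 100000 counts the highest value was 306 CPM, in a library numbered 1 to 100.

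Aqu2.1.31505_001 followed, with 43.8, 124 and 51.0 CPM in the chamber-formation individuals 105, 113 and 121, against 0, 0 and 0.701 CPM in the third mat individuals 104, 112 and 120. Pooled counts were 362 at chamber-formation and 1 in the mat, which is a 321-fold ratio (95% counting interval 57.3 to 12724). Its log2 fold change was 7.69, with an SE of 0.850 and a Benjamini-Hochberg adjusted p of 0.00219 in edgeR. It was 7.00 without chamber-formation individual 113, and 9.56 without mat individual 120, when the mat group is at 0. Unlike Aqu2.1.24137_001, which had counts in every later individual but was low in some, it stood at 25.3 CPM or above in all of them. The tent-pole individuals 106, 114 and 122 had 25.3, 77.6 and 82.8 CPM, the juveniles 107, 115 and 123 had 202, 181 and 167 CPM, and the adults 108, 116 and 124 had 110, 236 and 50.6 CPM. No library of at least 100000 counts before settlement exceeded 3.38 CPM, and the 7 cleavage libraries had no count. In tent-pole-formation against the second mat individuals, which are other animals, its log2 fold change was 5.11, with an SE of 0.812 and a Benjamini-Hochberg adjusted p of 0.0104 in edgeR.

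Aqu2.1.06761_001 had the lowest log2 fold change, -6.43, with an SE of 0.739 and a Benjamini-Hochberg adjusted p of 0.0025 in edgeR. It stood at 0, 0.455 and 3.64 CPM in the chamber-formation individuals 105, 113 and 121, against 62.9, 79.0 and 89.7 CPM in the third mat individuals 104, 112 and 120. The pooled counts were 3 and 290, which is a ratio of 0.00918 (95% counting interval 0.00188 to 0.0271). Across the other individuals this gene did not follow the stages. It was high in 1 of 3 settlement individuals (7.85, 1.25 and 90.0 CPM in 101, 109 and 117), 1 of 3 first mat individuals (12.8, 51.6 and 9.29 CPM in 102, 110 and 118), 1 of 3 tent-pole individuals (85.1, 4.92 and 4.36 CPM in 106, 114 and 122) and 1 of 3 juveniles (122, 1.77 and 4.95 CPM in 107, 115 and 123). In the second mat individuals it was at most 6.74 CPM, and it was not among the genes tested for tent-pole-formation against them. The settlement individuals alone thus spanned 1.25 to 90.0 CPM, where the compared means were 1.37 CPM at chamber-formation and 77.2 CPM in the third mat individuals. Its log2 fold change was -5.81 without chamber-formation individual 105 and -7.71 without individual 121. In 1 fit of all 24 libraries it no longer passed the test (log2 fold change -6.37, adjusted p = 0.0577, edgeR).

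Aqu2.1.31514_001 had its highest stage mean at late ring and was still detected in the mat individuals of the runs. It stood at 5.74, 6.38 and 9.11 CPM in the chamber-formation individuals 105, 113 and 121, against 58.7, 115 and 150 CPM in the third mat individuals 104, 112 and 120. Its log2 fold change was -3.95, with an SE of 0.437 and a Benjamini-Hochberg adjusted p of 0.00219 in edgeR. Before settlement it was at 49.6 ± 86.1 CPM (SD, n = 7) at ring, 1175 ± 629 CPM (n = 7) at late ring and 430.3 ± 187 CPM (n = 13) in free-swimming larvae. It stood at 83.2, 275 and 510.2 CPM in the settlement individuals 101, 109 and 117. The first mat individuals 102, 110 and 118 were lower, at 20.0, 31.8 and 67.5 CPM. The second mat individuals 103, 111 and 119 had 233, 85.1 and 99.97 CPM, so the level did not fall steadily through the mat groups. After chamber-formation it stayed between 3.67 and 24.6 CPM in the tent-pole, juvenile and adult individuals of the runs. In tent-pole-formation against the second mat individuals its log2 fold change was -3.41, with an SE of 0.625 and a Benjamini-Hochberg adjusted p of 0.0173 in edgeR.

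**Figure D2:**
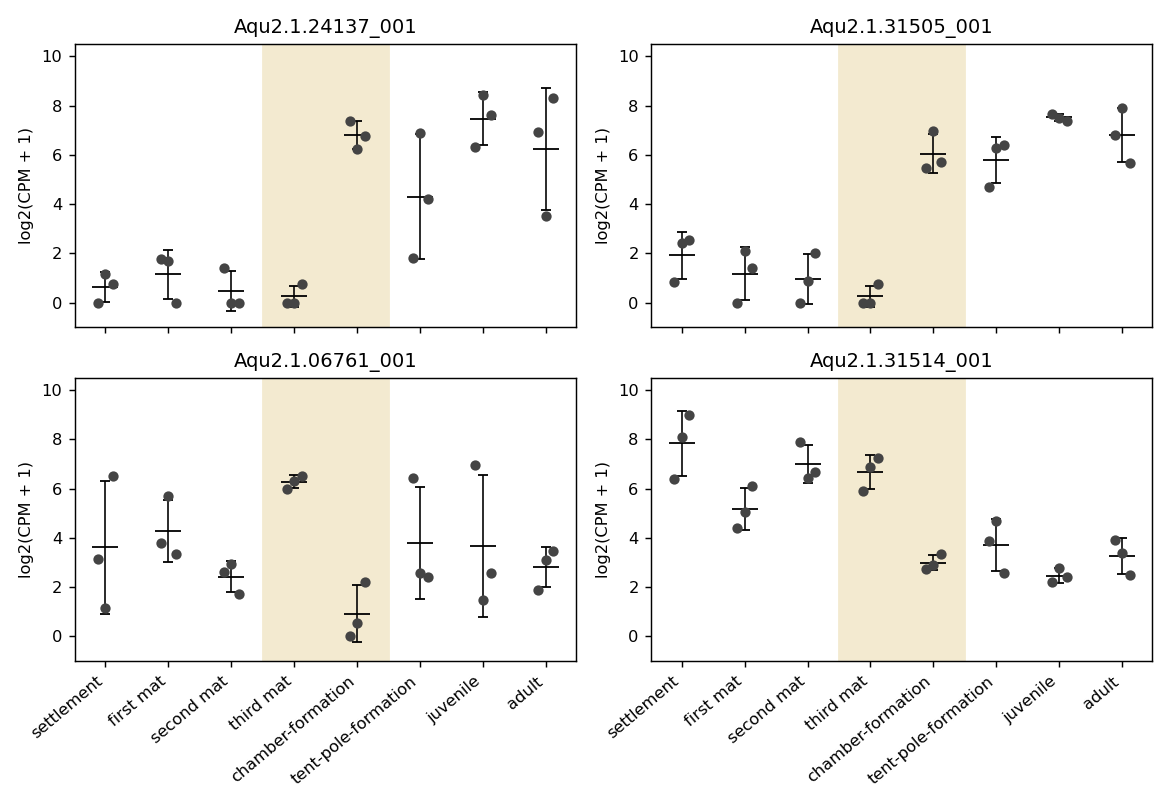
The 4 gene models with the highest and lowest log2 fold changes at a mean of at least 50 CPM are shown as log2(CPM + 1) in the 24 individuals numbered 101 to 124, 3 a stage in order of embryo number, with the mean and SD as bars and the compared groups shaded. The upper pair is low in every mat individual and high at chamber-formation, and Aqu2.1.06761_001 has single high individuals at settlement, in the first mat group, at tent-pole-formation and in juveniles.

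The genes that rose stayed up in the individuals of later stages. Their mean log2(CPM + 1) in the individuals numbered 101 to 124 was 3.36 ± 0.13 (SD, n = 3) at settlement, 2.89 ± 0.18 in the first, 2.99 ± 0.09 in the second and 3.31 ± 0.15 in the third mat individuals, and 6.22 ± 0.31 at chamber-formation. It was 5.65 ± 0.55 at tent-pole-formation, 6.81 ± 0.12 in juveniles and 6.25 ± 0.57 in adults. Values at the third mat and chamber-formation individuals chose the genes, and no test was made on the others. By the midpoint between the third mat and the chamber-formation level of a gene, 270 of the 299 (90.3%) stood on the chamber-formation side at tent-pole-formation, 278 (93.0%) in juveniles and 266 (89.0%) in adults, and 14 (4.68%) and 15 (5.02%) did so in the first and second mat individuals. Among the 8 groups of the runs, 172 of the 299 had their highest mean in juveniles (57.5%), 64 in adults (21.4%) and 32 at chamber-formation (10.7%). Over all genes tested, 13.1% were highest in juveniles, 15.3% in adults and 12.4% at chamber-formation. Tent-pole individual 106 stood lower than its stage mates, at 5.01 against 6.01 and 5.92 in individuals 114 and 122.

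In juveniles the share of counts of the same 299 genes was 13.7% ± 3.92 (SD, n = 3), against 6.81% ± 1.54 (n = 3) at chamber-formation. A single gene model held 40.4% of this share in juveniles. Without the 10 most abundant genes of each stage the share was 5.35% in juveniles and 3.35% at chamber-formation.

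Part of the genes that rose had been present at settlement. At settlement 58 of the 299 (19.4%) stood on the chamber-formation side of the midpoint, and 54 of these did so in juveniles as well. Another 224 were on the mat side at settlement and on the chamber-formation side in juveniles. The remaining 21 were back on the mat side in juveniles, 17 of which had also been there at settlement.

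**Figure D3:**
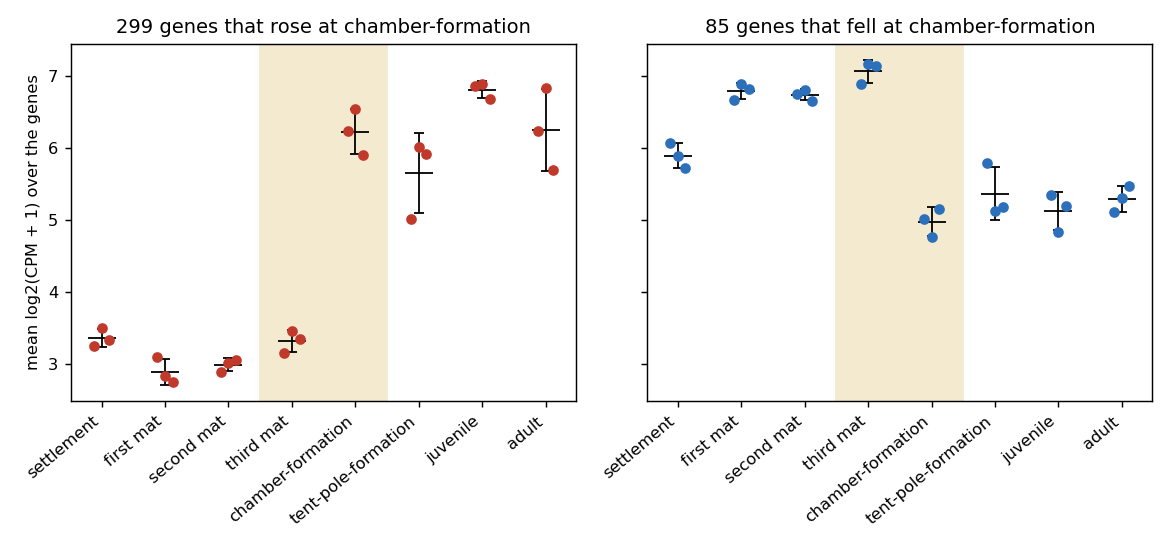
The mean log2(CPM + 1) over the 299 genes that rose and over the 85 that fell is shown for each of the 24 individuals numbered 101 to 124, with the mean and SD of 3 individuals as bars and the compared groups shaded. The genes that rose lie between 2.75 and 3.50 from settlement to the third mat individuals and at 5.01 or above from chamber-formation on.

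On average the genes that fell stood at a log2(CPM + 1) of 5.89 ± 0.17 (SD, n = 3) at settlement, 6.79 ± 0.11, 6.73 ± 0.08 and 7.06 ± 0.16 in the first, the second and the third mat individuals, and 4.97 ± 0.20 at chamber-formation. It was 5.36 ± 0.37 at tent-pole-formation, 5.12 ± 0.27 in juveniles and 5.29 ± 0.18 in adults. These genes were chosen by high values in the third mat individuals, so that 38 of the 85 were highest there of the 8 groups is a description only. The first mat individuals, which had no part in the choice, were highest for 21. As a share of counts the order of the 3 mat groups was another. The 85 genes held 6.76% ± 0.40 of counts in the first, 3.45% ± 0.11 in the second and 2.38% ± 0.43 in the third mat individuals (SD, n = 3 each). Without the 10 most abundant genes of each group these shares were 1.41%, 1.31% and 1.23%, in the same order but closer together.

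The same genes were then looked at in individuals that had no part in choosing them. Tent-pole-formation (individuals 106, 114 and 122) against the second mat individuals (103, 111 and 119) shares no library with the first comparison. In it 620 of 7650 gene models were called by the same test (8.1%), of which 361 rose (4.72%) and 259 fell (3.39%). The tent-pole individuals lay above all second mat individuals for 17.8% of the 7650 and below them for 11.8%. Of the 299 genes that rose at chamber-formation, 249 were tested there, as the filter on low counts was applied anew to these libraries. A gene low in the second mat individuals passes it mainly if high at tent-pole-formation. The filter thus favours positive values among the 249, and their shares are a description only. Of the 249, 242 (97.2%) had a positive log2 fold change, against 49.8% of all 7259 genes tested in both comparisons. The median log2 fold change of the 249 was 2.81 with quartiles of 1.69 and 3.92, against -0.01 over all genes. Of the 249, 154 rose (61.8%) and 0 fell, where 4.64% of all genes rose. The 154 are 42.7% of the genes that rose in the tent-pole comparison. The tent-pole individuals lay above all second mat individuals for 205 of the 249 (82.3%), against 17.7% of the 7259.

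Most of the genes that fell at chamber-formation were lower at tent-pole-formation too. Of the 85, 74 passed the filter on low counts and were tested in the tent-pole comparison. Of these 74, 63 (85.1%) had a negative log2 fold change, against 50.2% of all genes. The median log2 fold change of the 74 was -1.27 with quartiles of -2.20 and -0.65. Aqu2.1.06761_001, the largest fall at chamber-formation, was not among the 74. Its groups overlapped, at 85.1, 4.92 and 4.36 CPM in tent-pole individuals 106, 114 and 122, against 5.06, 6.74 and 2.32 CPM in second mat individuals 103, 111 and 119. Of the 74, 29 fell (39.2%) and 1 rose, where 3.46% of all genes fell, and the 29 are 11.2% of the genes that fell in the tent-pole comparison. The tent-pole individuals lay below all second mat individuals for 39 of the 74 (52.7%), against 12.0% of the 7259. The 1 gene that rose was highest in the third mat individuals. It had 57.9 CPM at chamber-formation (40.2 to 80.2), against 251 CPM (232 to 275) in the third mat individuals, and 76.7 CPM (50.5 to 94.4) at tent-pole-formation, against 27.5 CPM (23.6 to 30.3) in the second mat individuals, with 3 individuals each. Tested gene by gene in 1 fit of the 12 libraries, the 2 changes were called different for 4 of 9131 gene models (0.0438%), this gene among them. Differences can be missed with 3 individuals a group, so the other gene models are not shown to change alike.

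**Figure D4:**
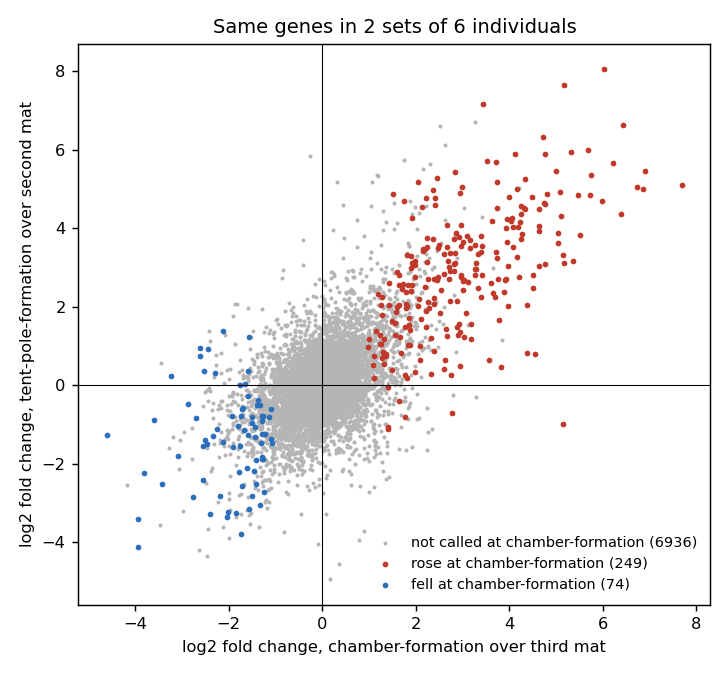
Each point is 1 of 7259 gene models tested in both comparisons, with the log2 fold change of chamber-formation over the third mat individuals across and that of tent-pole-formation over the second mat individuals upwards. Of the 249 red points, 242 lie above 0, and of the 74 blue points, 63 lie below 0.

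The embryo and larval libraries, all numbered 1 to 100, were used to see where the called genes stood before settlement. The comparison of levels across number sets rests on different depths and on libraries that may have been made apart, and their part in the levels was not tested. Of the 299 genes that rose, 87 (29.1%) had all embryo and larval stage means under 0.1 of their chamber-formation mean, against 2.11% of all genes tested. For 19 of the 299, every such mean was under 1 CPM. At the other end, 84 (28.1%) had at least 1 embryo or larval stage mean as high as at chamber-formation, against 58.1% of all genes. Both counts use the chamber-formation means that chose the 299 genes, which favours low embryo values relative to them, so they are a description only.

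Among the embryo stages the genes that rose stood highest in the middle of brooding as a share of counts. They took 1.78% ± 0.23 of counts at cleavage (SD, n = 7), 2.25% ± 0.82 at brown, 5.03% ± 0.45 at cloud, 6.81% ± 0.95 at spot, 6.85% ± 0.78 at late spot, 4.93% ± 0.58 at ring and 2.39% ± 0.84 at late ring (n = 7 each), and 1.92% ± 0.51 in free-swimming larvae (n = 13). The share at spot and late spot was thus as large as at chamber-formation, and as concentrated. It took 8 genes at spot, 9 at late spot and 10 at chamber-formation to make up 50% of it, and without the 10 most abundant genes of each stage the shares were 3.09%, 3.11% and 3.35%. Of the 299, 129 at spot, 140 at late spot and 298 at chamber-formation had a mean of at least 10 CPM, where the chamber-formation values had chosen the genes. The mean log2(CPM + 1) was 3.56 ± 0.18 (n = 7) at spot, 3.55 ± 0.08 (n = 7) at late spot, 3.07 ± 0.32 (n = 7) at late ring and 2.84 ± 0.24 (n = 13) in larvae. Counted by gene, cleavage was most often the highest stage, for 35.4% of the 297 genes with a count, against 24.5% of all genes. Spot and late spot were so for 11.1% and 13.8%, against 4.76% and 5.71%, and the ciliated free-swimming larva for 8.75%, against 17.5%.

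Before settlement the genes that fell were most often highest in the larva. Of the 85, 36.5% were highest in free-swimming larvae, against 17.5% of all genes. Averaged over the 85 genes, log2(CPM + 1) was 3.99 ± 0.24 (SD, n = 7) at ring, 4.48 ± 0.29 (n = 7) at late ring and 5.00 ± 0.25 (n = 13) in larvae, and 3 of the 85 made up 50% of their counts in larvae.

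**Figure D5:**
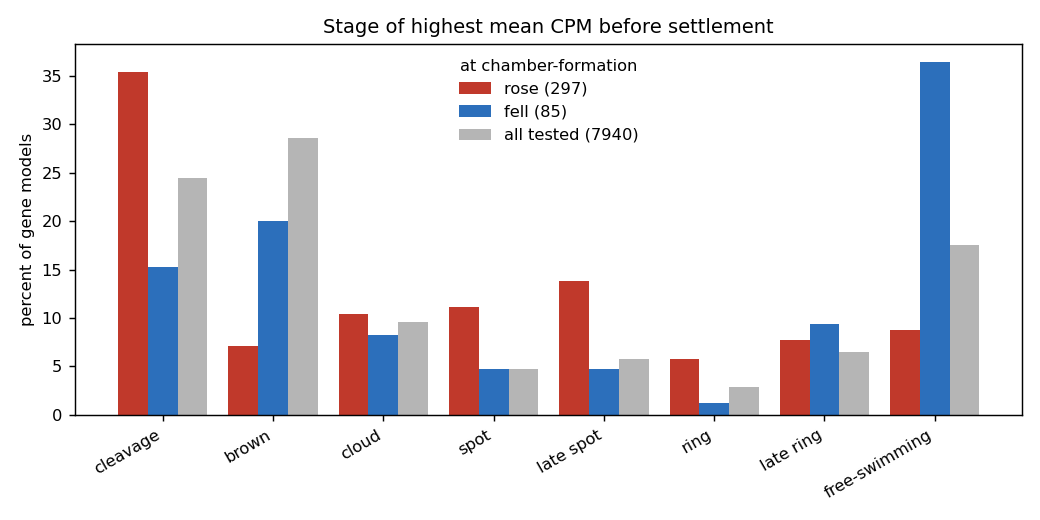
Bars give the percent of gene models whose mean CPM before settlement was highest at each of 8 stages, for genes that rose and fell at chamber-formation and for all genes tested. Late spot takes 13.8% of the genes that rose, against 5.71% of all genes, and the free-swimming larva takes 36.5% of those that fell, against 17.5%.

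The number of gene models detected was compared at equal depth. At 100000 counts per library, 8723, 8592 and 8857 gene models were detected in the chamber-formation individuals 105, 113 and 121, against 8688, 8952 and 8770 in the third mat individuals 104, 112 and 120, and the groups overlapped (exact permutation test, two-sided, p = 0.5). At 548828 counts per library the numbers were 13471, 13048 and 13504, against 14005, 14519 and 14183. At this depth every chamber-formation individual had fewer, with a mean difference of -894.7 gene models (exact permutation test, two-sided, p = 0.1, the smallest that 3 against 3 can give).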

How the data were processed

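Single individuals were measured by CEL-seq on polyadenylated RNA, per the labels' protocols. CASAVA 1.8, Bowtie2 2.1.0 and HTSeq 0.5.4p3 are listed in the submitters' processing notes. For settings, genome build, annotation, strand use and molecular identifiers, the sources used here say nothing. Whole-number counts per gene model, not normalized, make up the deposited table. It was held only in part. Its last line is incomplete, which leaves 36868 gene models. All 124 columns match a library by title, and there were 0 others.

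The labelled developmental stage set the groups. Whether individuals share a mother or batch is not given. The p-values take them as independent and measure the spread between individuals only if they are. The comparison, its individuals and the lists were chosen with earlier results of these data known. Tests used edgeR 4.0.16 in R 4.3.3 (quasi-likelihood, TMM scaling, filterByExpr, minimum count 10, minimum total 15), two-sided, over all gene models tested, in fits of the 6 libraries compared. SEs are the log2 fold change divided by the root of the F statistic. Named genes are the 2 that rose most and the 2 that fell most in log2 fold change, of the called genes whose groups do not overlap and whose higher group averages 50 CPM or more. CPM uses the deposited totals. Levels are means of log2(CPM + 1) in libraries of at least 100000 counts. The test of the difference between the 2 comparisons was added after the data were seen. Thinning, permutation tests and figures used Python 3.11.15, numpy 2.4.6, scipy 1.17.1, pandas 2.3.3 and matplotlib 3.10.9. The edgeR test was tested on simulated data. Counting intervals cover counting error only. The closest pair of individuals within a group differed by more than sampling error (chi-square of at least 10.3 per degree of freedom).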

Additional observations from a re-analysis of the deposited data

Results flagged for a closer look

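The 2 comparisons that share no library were set against each other gene by gene, in 1 edgeR fit of their 12 libraries. The change from the third mat individuals to chamber-formation differed from the change from the second mat individuals to tent-pole-formation for 4 of 9131 gene models (0.0438%) at an adjusted p under 0.05, with 836 at an unadjusted p under 0.05. Gene models that did not pass are not shown to change alike, as differences can be missed with 3 individuals a group. Of the 384 genes called at chamber-formation, 2 were among the 4. The gene that fell at chamber-formation and rose at tent-pole-formation, described above, was one of them, with a difference of log2 fold changes of -3.53 (adjusted p = 0.0121, edgeR). The other rose in both. It had 150.0 CPM at chamber-formation, against 53.9 CPM in the third mat individuals, and 204 CPM at tent-pole-formation, against 6.87 CPM in the second mat individuals, a difference of -3.38 (adjusted p = 0.0328, edgeR). The remaining 2 fell at tent-pole-formation and were not called at chamber-formation. One had 34.5 CPM at chamber-formation, against 13.7 CPM in the third mat individuals, and 37.2 CPM at tent-pole-formation, against 186 CPM in the second mat individuals (difference 3.76, adjusted p = 0.00235, edgeR).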

How the results depend on the processing

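In chamber-formation against the third mat individuals, DESeq2 called 465 genes higher and 213 lower, and kept 381 of the 384 genes called by edgeR. Without a filter on low counts 637 rose and 370 fell, and with all 9 mat individuals numbered 101 to 124 as the other side 613 rose and 399 fell. Libraries thinned to the smallest total gave 161 and 37, with 5637 genes tested, and a test against a 2-fold change 140 and 14. Leaving out 1 individual gave 129 to 306 genes that rose and 16 to 77 that fell. A single fit of all 24 libraries called 297 and 88 and kept 267 of the 384, and DESeq2's size factors 299 and 87.

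In tent-pole-formation against the second mat individuals, DESeq2 called 578 higher, the test without a filter 794 and 463, and 1 fit of all 24 libraries 624 and 405. The test against a 2-fold change called 123 and 55. Leaving out 1 individual gave 102 to 382 that rose and 51 to 208 that fell.

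The runs of 8 numbers are not said to be batches. Deviations from the group means correlated at 0.015 to 0.0531 between individuals of the same run in the chamber-formation comparison and at -0.0262 to -0.0102 in the tent-pole comparison. With the run as a replicate block, 222 genes rose and 62 fell at chamber-formation, and 206 rose and 117 fell at tent-pole-formation.

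For the genes that rose, tent-pole-formation minus the second mat individuals was 2.66 in mean log2(CPM + 1) and 1.96 with a pseudocount of 5 CPM, and free-swimming larvae minus cleavage was 0.015 by the mean over genes and -0.26 by the median. The causes of these shifts were not tested. The number of genes detected kept its direction in all alternatives run, with differences of -145.8 to -5.00 when 1 individual was left out. The log2 fold changes of the 4 named genes kept their direction and their call in the alternatives run, with the exception given for Aqu2.1.06761_001. Their size moved more. With all 9 mat individuals it was 7.03 for Aqu2.1.24137_001, 5.82 for Aqu2.1.31505_001 and -5.32 for Aqu2.1.06761_001, and in thinned libraries 6.93, 6.13 and -5.44, with -4.66 for Aqu2.1.31514_001.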

Other observations

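Called genes stood next to another of their set in identifier number more often than all genes tested, though most did not. Of the 299 genes that rose, 45 (15.1%) had a gene with the next lower or higher identifier number that rose as well, where 345 of the 7944 genes tested (4.34%) stood next to a gene that rose. The longest unbroken series held 5 identifiers. Of the 85 that fell, 4 (4.71%) stood next to another that fell, against 1.01% of all genes. In 1 case a gene that rose stood next to one that fell. Whether neighbouring identifiers lie side by side in the genome, overlap or are similar copies that share reads is not given in the sources used here.

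Among mat-formation and settlement individuals numbered 1 to 100, levels varied more than in the later numbers. This held both for the genes that rose at chamber-formation and for all genes tested. Libraries numbered 1 to 100 entered from 100000 counts, where the shallowest numbered 101 to 124 held 548828. Levels can depend on depth, whose part in these values was not tested. For the genes that rose, the mean log2(CPM + 1) was 2.24 to 4.72 in the 3 mat-formation libraries with at least 100000 counts and 2.16 to 3.86 in the 4 settlement libraries, against 2.75 to 3.45 in the 9 mat-formation individuals numbered 101 to 124. Over all 7944 genes tested it was 2.80 to 4.43 in the same 3 mat-formation libraries and 3.22 to 4.48 in the same 4 settlement libraries, against 4.81 to 5.32 in the 9 later mat-formation individuals.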
